A study of Mus musculus with 8 samples.

Results

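Interneurons are the local inhibitory neurons of the hippocampus, and the 10 genes described here, Gad1, Gad2, Pvalb, Calb2, Sst, Npy, Vip, Cck, Reln and Lhx6, are the transcripts by which these cells and their subtypes are usually told apart. They were chosen by name, and every probe that the array assigns to one of these names was taken, which gave 18 probes for 10 genes out of 41174 probes for 27373 gene names. Of these, 16 probes passed the filter on dim signal and were tested between the strains together with the other probes of the array, 27981 in all. The probes left out were a further Gad1 probe and a further Reln probe, each designed on a separate transcript model, and neither was well above background on any of the 8 arrays.

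Whole hippocampi came from 4 BTBR T+ Itpr3tf/J (BTBR) and 4 C57BL/6J (B6) wild type mice, all untreated males of 5 months. BTBR is an inbred strain used as a model of autism-like behavior. It differs from B6 at many loci across the genome and lacks the corpus callosum, so a strain difference cannot be assigned to one gene. RNA of 1 mouse was hybridized to each single-color Agilent array, with replicates 1 and 2 of each strain together on slide 1 and the others on slide 2. The label for strain background reads C57BL/6J for all 8 samples, so the BTBR group was taken from the other labels. Expression is given as normalized log2 intensity, in which 1 unit is a doubling, and a difference as BTBR minus B6. Levels of different probes are not compared, since each probe has its own brightness.

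Interneurons make GABA from glutamate with the 2 glutamate decarboxylases encoded by Gad1 and Gad2, and they fall into classes by what else they express. Fast-spiking basket cells carry the calcium-binding protein parvalbumin (Pvalb), dendrite-targeting cells carry somatostatin (Sst) and often neuropeptide Y (Npy), and further classes carry vasoactive intestinal peptide (Vip), cholecystokinin (Cck), calretinin (Calb2) or reelin (Reln). Lhx6 is a transcription factor of the interneurons born in the medial ganglionic eminence, the origin of most Pvalb and Sst cells. None of these genes is exclusive to hippocampal interneurons. Pyramidal cells also express Cck, mouse mossy cells and many thalamic neurons express Calb2, Cajal-Retzius cells express Reln, and neurons of the striatum express Gad1 and Gad2. RNA of a whole hippocampus cannot tell fewer cells of a type from less RNA per cell.

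Some sequences carry the results below. Calb2 was read by 3 probes on separate stretches of its transcript, and these are printed because the same BTBR array was far above the others at all of them. The probe of Cort, a relative of Sst, is printed because it was the only gene among the interneuron lists that was called. The sequences are those of the array files, 5′ to 3′ in the sense of the transcript, named by gene and start on the transcript.
Calb2 at base 268: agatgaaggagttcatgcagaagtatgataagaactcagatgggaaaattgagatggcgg
Calb2 at base 585: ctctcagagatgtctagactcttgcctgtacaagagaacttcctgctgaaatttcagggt
Calb2 at base 736: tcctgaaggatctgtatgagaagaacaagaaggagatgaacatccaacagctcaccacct
Cort at base 231: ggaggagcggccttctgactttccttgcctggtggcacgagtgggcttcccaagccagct
On mm9 these lie on the minus strand at chr8:112678555-112678614, chr8:112671252-112671959, chr8:112667073-112669583 and chr4:148499507-148499566. The Calb2 positions of the probes at bases 585 and 736 span more of the genome than the 60 bases of a probe.

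No interneuron marker was called between the strains. Limma, in which a difference is weighed against the variation among mice, gave an adjusted p under 0.05 for 0 of the 16 probes, where it called 3.31% of all tested probes as higher and 4.3% as lower in BTBR mice. At an unadjusted p under 0.05 there was 1 of 16, the Sst probe, against 18.5% of all tested probes. The arrays of the strains did not overlap for the same single probe, against 14.2% of all tested probes. By the brightest probe of each gene, 5 genes were higher and 5 lower, with a median difference of 0.03 against 0.01 over all 18398 gene names, of which 3.49% were called higher and 4.33% lower. The rank product, the test the study's methods name, called 0 of the 16 at a pfp (percentage of false prediction) of 0.05 or less and 1101 probes in all, and the smallest pfp among the markers was 0.154, at a Calb2 probe.

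**Figure D1:**
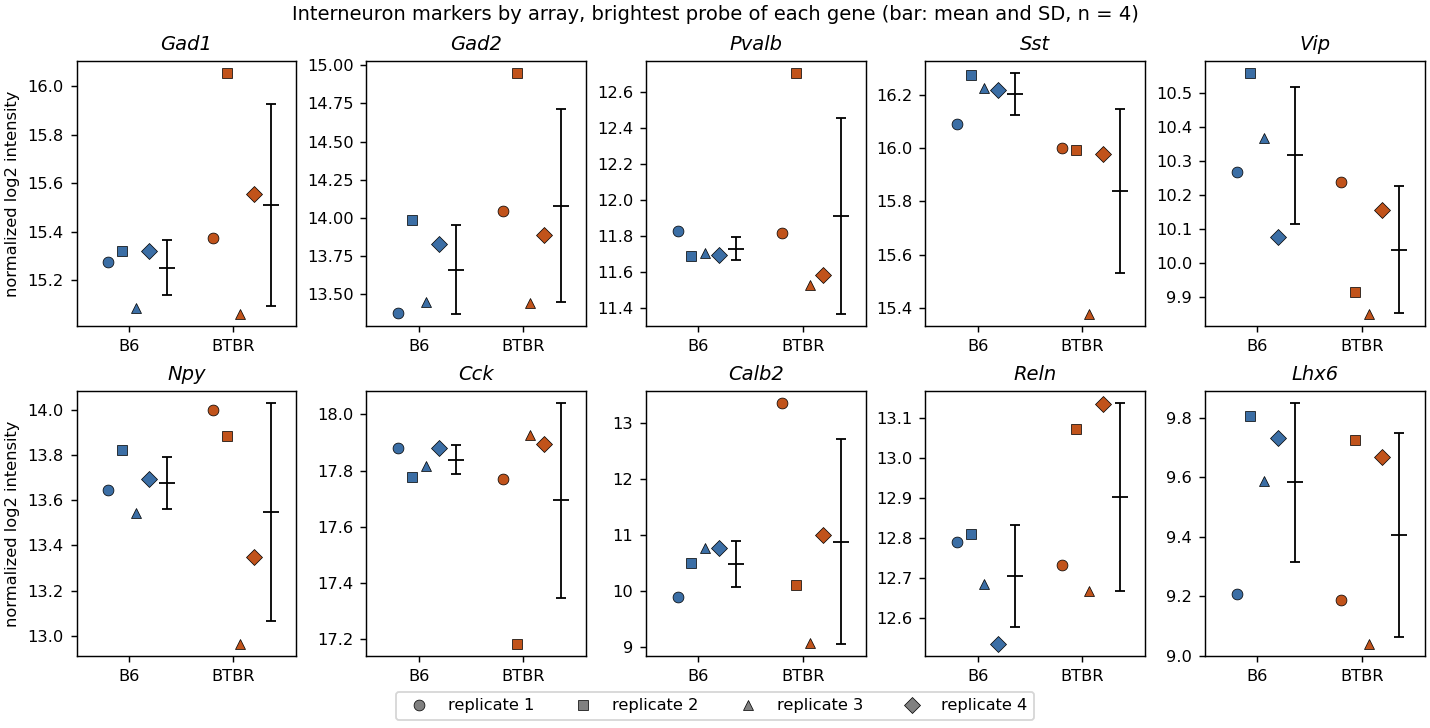
Normalized log2 intensity of the brightest probe of each of the 10 genes on the 8 arrays, with 1 symbol per replicate and the mean and SD of each strain (n = 4) as a black bar; each panel has its own axis. The strains separate at Sst alone, BTBR 2 stands highest at Gad1, Gad2 and Pvalb, and BTBR 1 stands highest at Calb2.

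**Figure D2:**
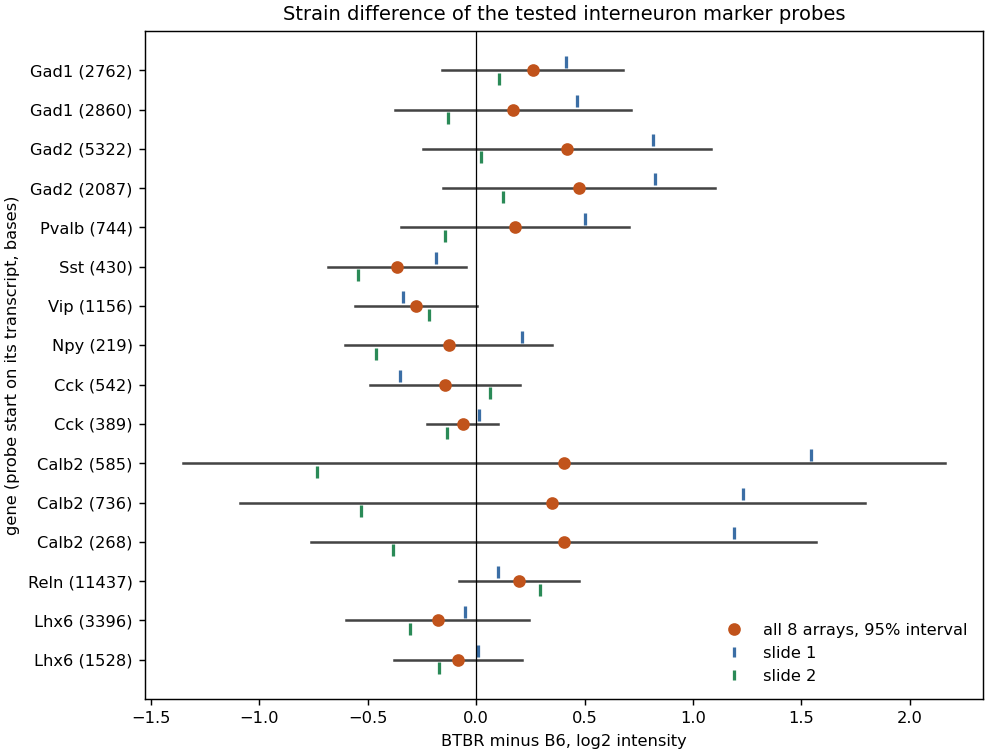
BTBR minus B6 difference in log2 intensity at the 16 tested probes, with the 95% interval of limma as a line and the differences within slide 1 and slide 2 as ticks. The interval leaves out 0 at Sst alone, and it is widest at the 3 Calb2 probes, where the slides point in opposite directions.

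The GABA-synthesizing enzymes were not distinguishable between the strains, and the BTBR mean stood above the B6 mean largely through 1 array. Gad1 encodes GAD67, the enzyme behind most of the GABA in the cell body, and Gad2 encodes GAD65, which sits at terminals. The brighter Gad1 probe (chr2:70439601-70439660) measured 15.28, 15.32, 15.08 and 15.32 on B6 arrays 1 to 4 and 15.37, 16.05, 15.06 and 15.55 on BTBR arrays 1 to 4. BTBR 2 stood above all other arrays and BTBR 3 below all, so that the B6 values lay inside the BTBR range. The difference was 0.26 (standard error 0.18, 95% interval from -0.16 to 0.68, limma adjusted p = 0.53). The Gad1 probe next to it (chr2:70439699-70439758) read 14.83, 15.13, 14.82 and 15.03 in B6 and 15.10, 15.79, 14.45 and 15.15 in BTBR mice, a difference of 0.17 (limma adjusted p = 0.78).
At both Gad2 probes BTBR 2 was again the highest array. The probe at chr2:22549095-22549154 measured 13.38, 13.98, 13.45 and 13.83 in B6 and 14.04, 14.95, 13.44 and 13.88 in BTBR mice, a difference of 0.42 (95% interval from -0.24 to 1.08, limma adjusted p = 0.52). The probe at chr2:22545860-22545918 gave 0.47 (95% interval from -0.15 to 1.10, limma adjusted p = 0.42), with B6 values from 13.21 to 13.79 and BTBR values from 13.56 to 14.84. These probes start at bases 5322 and 2087 of the transcript. Within slides, the Gad2 differences were 0.82 and 0.82 on slide 1 and 0.02 and 0.12 on slide 2, and a limma test of the strain by slide term gave adjusted p of 0.58 and 0.61. Without BTBR 2 the differences fell to 0.13 and 0.19 at Gad2 and to 0.08 and -0.05 at Gad1, the second of which changed direction.

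Among the calcium-binding proteins, Pvalb marks fast-spiking basket and axo-axonic cells. Its probe (chr15:78021647-78021706) measured 11.83, 11.69, 11.70 and 11.69 in B6 and 11.81, 12.70, 11.53 and 11.58 in BTBR mice. The B6 arrays lay within a narrow band, and BTBR 2 stood above it while BTBR 1 lay inside and BTBR arrays 3 and 4 below. The difference was 0.18 (95% interval from -0.35 to 0.70, limma adjusted p = 0.76), and it was -0.09 without BTBR 2. The SD was 0.54 in BTBR against 0.07 in B6 mice (n = 4 each), a ratio of 8.28.
Calb2, the calretinin gene, had the widest spread of the 10 genes. Its brightest probe, at base 585, measured 9.89, 10.49, 10.76 and 10.76 in B6 and 13.36, 10.11, 9.06 and 10.99 in BTBR mice. BTBR 1 was the highest and BTBR 3 the lowest of all 8 arrays. The probe at base 736 read 8.97, 9.43, 9.63 and 9.64 in B6 and 11.85, 9.01, 8.40 and 9.81 in BTBR mice, and the probe at base 268 read 7.90, 8.37, 8.57 and 8.64 in B6 and 10.43, 8.21, 7.68 and 8.76 in BTBR mice. All 3 probes thus put BTBR 1 highest and BTBR 3 lowest, although the last was well above background on only 3 arrays of each strain. The differences were 0.40, 0.35 and 0.40, with limma adjusted p of 0.84, 0.83 and 0.75, and the 95% interval of the first ran from -1.35 to 2.16. Without BTBR 1 they were -0.42, -0.34 and -0.15.

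The neuropeptides gave the only marker whose arrays did not overlap. Somatostatin inhibits the dendrites of pyramidal cells alongside GABA, and the Sst probe (chr16:23889776-23889835) measured 16.09, 16.28, 16.23 and 16.22 in B6 and 16.00, 15.99, 15.38 and 15.98 in BTBR mice. All 4 BTBR values were below all 4 B6 values, 3 of them by little and BTBR 3 by more. The difference was -0.37 (standard error 0.14, 95% interval from -0.68 to -0.05), a BTBR level of 0.776 times that of B6. Its exact two-sided permutation p was 0.0286, the smallest that 4 arrays against 4 allow. Over all probes the limma adjusted p was 0.20, so Sst was not called, and it lay between 0.11 and 0.36 over 19 alternative settings. The difference was -0.19 on slide 1, -0.54 on slide 2 and -0.21 without BTBR 3.
Npy, which is released by Sst cells, neurogliaform cells and ivy cells, measured 13.64, 13.82, 13.54 and 13.69 in B6 and 14.00, 13.88, 12.96 and 13.35 in BTBR mice (chr6:49773743-49777505). BTBR arrays 1 and 2 were above all B6 arrays, and BTBR arrays 3 and 4 were below all of them. Its difference was -0.13 (95% interval from -0.61 to 0.35, limma adjusted p = 0.82), with 0.21 on slide 1 and -0.46 on slide 2 (limma adjusted p = 0.46 for the strain by slide term).
Vip marks interneurons that mainly inhibit other interneurons. The Vip probe (chr10:4699238-4699297) measured 10.27, 10.56, 10.37 and 10.08 in B6 and 10.24, 9.91, 9.85 and 10.16 in BTBR mice. The ranges overlapped through B6 4, and the difference was -0.28 (95% interval from -0.56 to 0.00, limma adjusted p = 0.28). It was the one brightest probe whose SD was no larger in BTBR (0.19) than in B6 mice (0.20).
Cck, a peptide of another basket cell class and of pyramidal cells, measured 17.88, 17.78, 17.82 and 17.88 in B6 and 17.77, 17.18, 17.93 and 17.90 in BTBR mice (chr9:121399031-121399090). BTBR 2 was the lowest array and the other BTBR values lay around those of B6. The difference was -0.14 (limma adjusted p = 0.70), and 0.03 without BTBR 2. A second, dim Cck probe, on another transcript model, differed by -0.06 (limma adjusted p = 0.73).

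Reln and Lhx6 completed the set. Reelin is a secreted protein of Cajal-Retzius cells in development and of interneurons in the adult. The Reln probe (chr5:21390477-21390536) measured 12.79, 12.81, 12.68 and 12.53 in B6 and 12.73, 13.07, 12.67 and 13.14 in BTBR mice, where BTBR arrays 2 and 4 were above all B6 arrays. The difference was 0.20 (95% interval from -0.08 to 0.47, limma adjusted p = 0.45), and 0.12 without BTBR 4. Lhx6 at its brighter probe (chr2:35937499-35937558) measured 9.21, 9.81, 9.59 and 9.73 in B6 and 9.19, 9.72, 9.04 and 9.67 in BTBR mice, a difference of -0.18 (limma adjusted p = 0.69), which with 1 array left out ran from -0.30 (without B6 1) to -0.057 (without BTBR 3). Both strains held low values, B6 1 in one and BTBR arrays 1 and 3 in the other. The dimmer Lhx6 probe, well above background on 3 arrays of each strain, gave -0.08 (limma adjusted p = 0.81). B6 1 and BTBR 3 were also the arrays with the fewest probes well above background, 56.8% and 61.9%, against 67.6% to 71.9% on the others, and the part of this in the low Lhx6 and Calb2 values was not tested.

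The markers varied more among BTBR than among B6 mice. The SD was larger in BTBR for 13 of the 16 probes, with a median BTBR to B6 ratio of 3.58, whereas over all tested probes it was larger for 66.7% with a median ratio of 1.37. No test was made of this difference, since the probes share arrays. The spread came from different arrays for different genes. BTBR 3 was the lowest BTBR array for 9 of the 10 genes, all but Cck, where 32.0% of all tested probes had it lowest. It was also the BTBR array with the fewest probes well above background (61.9%). The part of this in its low values, that of Sst among them, was not tested. BTBR 2 was the highest BTBR array for Gad1, Gad2, Pvalb and Lhx6, and BTBR 1 for Sst, Vip, Npy and Calb2.

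Markers of other brain regions moved with these arrays. The striatum list, 9 genes of the neighboring nucleus such as Ppp1r1b and Adora2a, was highest on BTBR 2 for 9 of 9 genes, with a mean 2.76 above the B6 mean on the log2 scale. It stood 1.27 above on B6 2 and 0.70 above on BTBR 1, and between -0.64 and -0.32 on the other 5 arrays. The summed intensity of the list ran from 19009.5 to 57029.8 on the B6 arrays and from 16339 to 168425 on the BTBR arrays. Striatal projection neurons are GABAergic, and BTBR 2 was the array on which Gad1 and Gad2 were highest. It was also lowest for Cck and for the list of 10 glutamatergic neuron genes (mean deviation -0.55), and the highest for 8 of 8 oligodendrocyte genes (0.62). On BTBR 1 the mean deviation of the glutamatergic list was 0.00, but only 3 of its 10 genes stood above the B6 mean. Slc17a6, also on the thalamus list below, measured 14.61 there against a B6 mean of 11.43. The summed intensity of the glutamatergic list was 347272 on BTBR 1, against 415012 to 447455 on the B6 arrays. Prox1, the transcription factor of dentate granule cells, measured 11.90 in B6 and 11.31 in BTBR mice (limma adjusted p = 0.46).
The thalamus list, taken without Calb2, was highest on BTBR 1 for 9 of 9 genes, with a mean 2.48 above that of B6, against 0.65 on BTBR 2 and between -0.07 and 0.16 on the other arrays. Its summed intensity ran from 37595 to 42088 in B6 and from 41445 to 166688 in BTBR mice. BTBR 1 was the array with the high Calb2 values. On both arrays the list of 8 choroid plexus genes was raised as well, by 1.62 on BTBR 1 and 1.47 on BTBR 2, where the B6 arrays lay between -0.89 and 0.62. So was the Cajal-Retzius list of 4 genes, taken without Calb2 and Reln, by 0.80 on BTBR 1 and 0.51 on BTBR 2. The other arrays lay between -0.07 and 0.05 on this list. The rise was uneven: 3 of the 4 genes stood above the B6 mean on BTBR 1 and 4 on BTBR 2. On BTBR 1 Ebf3 rose most (10.54 against a B6 mean of 8.88), while Trp73 at its brightest probe did not rise (9.32 against 9.33). Only genes that passed the filter on dim signal entered these lists, so each was above background on some arrays by choice. Lhx5 and Ebf2 of the Cajal-Retzius list were not among the tested genes and were left out. The list of 8 meninges genes was highest on BTBR 4 (mean deviation 0.98, highest for 6 of 8 genes), the array on which Reln was highest. It was next highest on B6 3 (0.73), where Reln measured 12.68 against a B6 mean of 12.70. The part of these markers in the Gad1, Gad2, Pvalb, Cck, Calb2 and Reln values was not tested. Without BTBR arrays 1 and 2, a choice made after seeing the data, limma again called 0 of the 16 probes, and the smallest adjusted p was at Npy, whose difference became -0.52 (limma adjusted p = 0.066, in a range up to 0.93 over 19 alternatives).

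**Figure D3:**
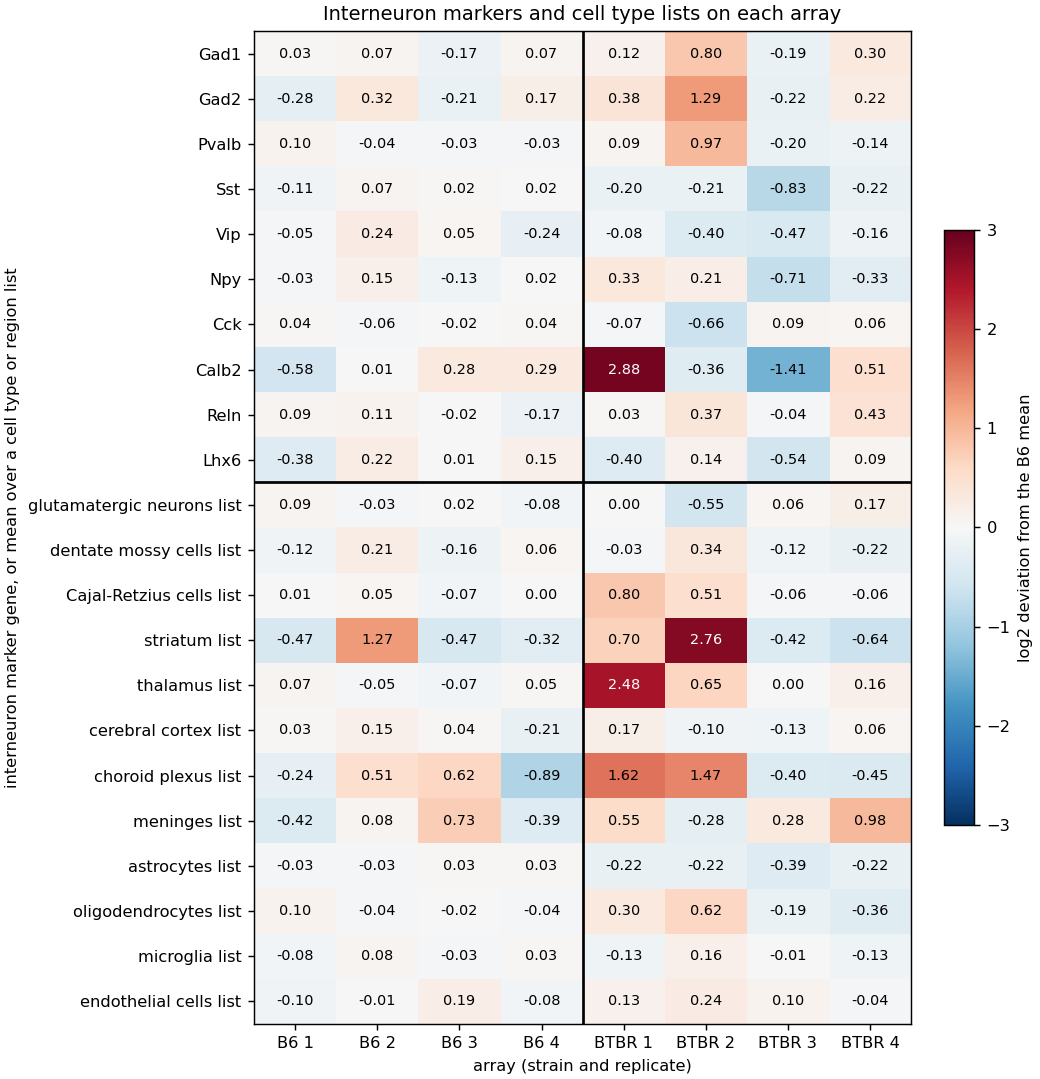
Log2 deviation from the B6 mean on each of the 8 arrays, for the brightest probe of the 10 interneuron markers (above the line) and as the mean over the genes of each cell type or region list with the markers left out (below it). BTBR 2 stands out at Gad2 (1.29) and the striatum list (2.76), and BTBR 1 at Calb2 (2.88) and the thalamus list (2.48).

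Genes around the markers were read from 5 lists, of which 76 of 85 genes were tested, each by its brightest probe. Limma called 1 of them, Cort, where it called 3.49% of all gene names as higher and 4.33% as lower. Cort encodes cortistatin, a peptide close to somatostatin that binds the same receptors and is made by a subset of cortical and hippocampal interneurons. Its probe (NM_007745) measured 11.73, 12.02, 12.05 and 11.80 in B6 and 10.04, 9.51, 9.36 and 9.82 in BTBR mice. Every BTBR array was more than 1 log2 unit below every B6 array. The fall was -2.22 (standard error 0.15, 95% interval from -2.56 to -1.87, limma adjusted p = 2.4e-05), a level 4.65-fold lower in BTBR mice. It was -2.10 on slide 1 and -2.33 on slide 2, and it was called in 19 of 19 alternative settings, with differences from -2.54 to -2.05 and limma adjusted p up to 0.0016. Cort has this 1 probe on the array, which shares a run of at most 6 bases with the Sst probe, and whether a BTBR sequence variant lies under it was not tested. Without BTBR arrays 1 and 2, on which the region markers were high, it was -2.31.

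**Figure D4:**
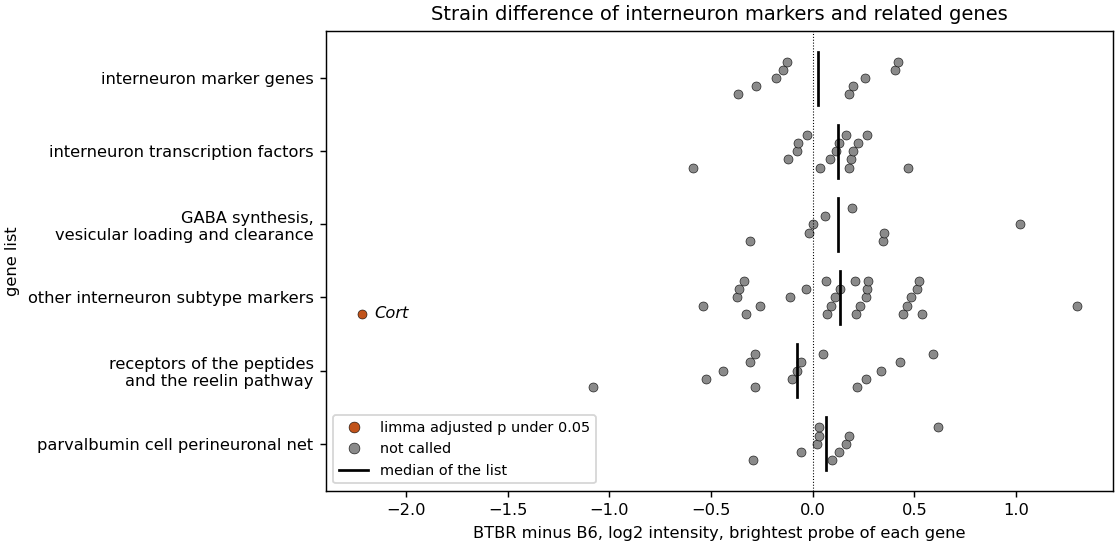
BTBR minus B6 difference in log2 intensity of each tested gene, by its brightest probe, for the 10 interneuron markers and 5 lists of related genes, with the median of each list as a bar. Cort, at -2.22, is the only gene called by limma at an adjusted p under 0.05.

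In the other lists the counts of calls were 0. Of 16 interneuron transcription factors, among them the Dlx genes and Sox6, 11 were higher and 5 lower, with a median of 0.12. Of 8 genes of GABA synthesis, vesicular loading and clearance, 5 were higher, with a median of 0.13. In this list Slc32a1, the vesicular GABA transporter, named here after its values were seen, was highest on the same array as Gad2, with 17.38 on BTBR 2, 16.61 on B6 2 and 16.04 to 16.43 on the other arrays. The 27 other subtype markers, Cort among them, had a median of 0.13, with 18 higher and 9 lower. The 15 receptors of the peptides and of reelin had a median of -0.08, and the 10 genes of the perineuronal net, the matrix around Pvalb cells, one of 0.06. The median over all gene names was 0.01.
Among the other subtype markers, dimmer probes of genes whose brightest probe was not called were lower in BTBR mice. They were probes of Id2, a regulator in neurogliaform cells (-0.57, limma adjusted p = 0.014), and Adarb2, a marker of interneurons from the caudal ganglionic eminence (-0.75, limma adjusted p = 0.0093). The brightest probes of these genes gave -0.03 and 0.54 and were not called, so probes of 1 gene disagreed. Outside neurons, the remaining calls at brightest probes were in the astrocyte and microglia lists. They were Gfap with -1.30 (limma adjusted p = 0.0014), Cx3cr1 with 1.41, C1qb with -1.01 and Itgam with -0.40, the last called in 18 of 19 alternatives. Further Gfap probes were also called, with -0.57 and -0.49 (limma adjusted p = 0.0060 and 0.036). So was a dimmer probe of Aldoc, of the astrocyte list, with -0.61 (limma adjusted p = 0.0051). Further probes of Cx3cr1 and Itgam gave -0.10 and -0.05 and were not called.

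The genes whose levels followed each marker most closely over the 8 arrays were named as a description. Gad2 was most like Dlx5, a homeobox gene of GABAergic neurons (Pearson r = 0.98, Spearman rho = 0.95), and Htr1d (r = 0.98). Gad1 was most like Ago4 (r = 0.97) and Rnf212 (r = 0.96), Pvalb like Ccr6 and Gga2 (both r = 0.98), and Calb2 like Ccnt1 and Atn1 (both r = 0.98). Sst was most like Pdzd7 (r = 0.996) and Ube2d3 (r = 0.99), Npy like Glra2 and Ahcyl1 (both r = 0.98), Vip like Msln and Col26a1 (both r = 0.97), Cck like Lrfn2 and Ric8 (both r = 0.99), Reln like Alkbh7 (r = 0.96) and Prdx3 (r = 0.95), and Lhx6 like Ppie (r = 0.98) and Plxna2 (r = 0.97). Each was picked as the closest of all other named genes over 8 arrays that share their normalization, and for Gad1, Gad2, Calb2, Pvalb, Sst and Cck 1 array supplies most of the range.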

How the data were processed

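Hippocampal RNA of 4 BTBR and 4 B6 mice was measured on single-color Agilent arrays. The authors deposited intensity values read with Agilent Feature Extraction (10.7.3.1 in the file headers, 9.1 in the submitters' processing notes), unscaled between arrays, with local background and flags for each spot. The deposited log2 matrix was made by the authors by background subtraction, quantile normalization and summary of replicate spots. Here the local background was subtracted from mean intensity (minimum 0.5), 50 was added, log2 values were quantile normalized with limma 3.58.1 in R 4.3.3 (data.table, version 1.17.8), 154 probes were lost to outlier flags, and the median of the spots of a probe was taken. Probes well above background on at least 75% of the arrays of a strain were tested. Limma (lmFit, eBayes) was fitted on strain, with Benjamini-Hochberg adjustment over all 27981. The fit was checked on simulated data with independent normal noise and the same SD in both strains. That setting lacks the larger BTBR spread of the markers, so the check does not cover it. Single probes were compared by exact permutation over 70 arrangements. Array number limits the precision. Separate animals are implied by the labels. Gene names and mm9 positions are those of the array files. Figures used Python 3.11.15 with matplotlib 3.10.9 and NumPy 2.4.6.
All probes of the 10 genes were named, with the called genes of each list (at most 4 in each direction, or 3 for cell types) and the 2 genes most like each marker. Slc32a1 and the genes called at dimmer probes were chosen once their values were known. A few list genes are not reported here. The members and lists were chosen with earlier results of these data known. The alternatives were other background correction, signal, scaling, filters, flags, probe summary, test options, slide or replicate block, a threshold of 0.01 and each array left out.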

Additional observations from a re-analysis of the deposited data

Results flagged for a closer look

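In 2 of the 32 sets of 4 arrays of one strain examined at the 16 probes, 1 array lay far from the others relative to the whole range, and chance gives about 1 in 20. The Pvalb value of B6 1 was 11.83 where the other B6 arrays read 11.69 to 11.70, a gap that is small in size because these agree so closely. The Sst value of BTBR 3 was 15.38 where the other BTBR arrays read 15.98 to 16.00.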

How the results depend on the processing

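Limma or the rank product called 0 of the interneuron marker probes under each of the 22 alternatives run, and the smallest adjusted p of a probe was 0.066. Of 301 probe differences recomputed, 287 kept their direction and stayed uncalled, and 14 changed direction without being called. Among the 287 are those from the filters, the slide and replicate blocks and the limma options. These settings leave each difference as it is, so its direction could not change there. Without BTBR arrays 1 and 2, chosen after seeing the data, the differences turned to -0.16 at the dimmer Gad1 probe, -0.17 at Pvalb, 0.072 at Cck, and -0.32, -0.15 and -0.45 at the Calb2 probes at bases 736, 268 and 585. With 1 array left out in turn, the same Calb2 probes ran from -0.34 to 0.81, -0.15 to 0.77 and -0.42 to 1.01 (negative without BTBR 1), the dimmer Gad1 probe from -0.055 to 0.39, Pvalb from -0.086 to 0.30 and Cck from -0.22 to 0.026 (turned without BTBR 2), Npy from -0.28 to 0.068 (turned without BTBR 3) and the dimmer Lhx6 probe from -0.20 to 0.0085 (turned without B6 2).
Same-numbered arrays deviated together for numbers 2 and 4 (correlations 0.51 and 0.39) but not for 1 and 3 (-0.14 and -0.10), so the numbers were not taken as pairs. With the replicate block, which leaves each difference as it is (0.26 at the brighter Gad1 probe) and alters only its error, 0 marker probes were called, and calls over all probes went from 2129 to 1650. With the processed signal Sstr1 was called (1.72), without BTBR 3 so were Pnoc (0.67), Sstr1 (0.55) and Dab1 (-0.62), without BTBR 4 Cxcl14 (-0.45), Npy1r (-0.42) and Hapln2 (0.90), and without BTBR arrays 1 and 2 Npas1 (0.66). With 4 mice a strain, the intervals allow differences of up to 1.10 at Gad2 and 2.16 at Calb2.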
